A study of Danio rerio with 2 samples.

Results

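Antigen presentation in the adult zebrafish intestine was followed through 10 genes, cd74a, cd74b, mhc2dab, b2m, mhc1uba, mhc1zba, tap1, psmb8a, psmb9a and psmb13a, out of 25432 genes counted. They were taken by symbol, and each symbol matched 1 gene. No measured value was used as a rule for the choice, but earlier results of these data were known when it was made. Single-cell RNA sequencing with a 3' droplet kit had been run on dissociated whole intestines, with 1 library from nod2-/- fish and 1 library from WT fish (nod2+/+) of the TL strain. Each library pooled the intestines of 5 fish aged 6 months, and both groups were cohoused siblings from an in-cross with the same balance of males and females. The mutant fish carry a small CRISPR-Cas9 deletion that shifts the reading frame in the first coding exon of nod2, which encodes a cytosolic sensor of bacterial cell wall fragments. With 1 library per genotype there was no replicate, so no p-value is given, intervals are 95% and cover counting error only, and genotype, fish and library cannot be told apart.

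Nearly every cell shows pieces of its own proteins on MHC class I molecules. The proteasome cuts the peptides, interferon-inducible subunits such as those encoded by psmb8a and psmb9a change where it cuts, a transporter that contains Tap1 moves the peptides into the endoplasmic reticulum, and a heavy chain paired with beta-2-microglobulin binds them there. MHC class II molecules present swallowed material and are made mainly by macrophages, dendritic cells and B cells, with the invariant chain CD74 filling their groove until lysosomal proteases remove it. In mammals, intestinal epithelial cells can also make class II molecules. Zebrafish have several lineages of class I genes. The U lineage (mhc1uba) holds the classical, polymorphic genes, and the Z lineage (mhc1zba) is more conserved. U genes and linked proteasome genes are carried in haplotypes that differ between fish, so pools of different fish could differ in the copies they carry. A difference of that origin would be expected in every cell class, and the question put to the counts was whether differences between the libraries, and between paralogs, recurred in every class.

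The nod2-/- library held 5599 cells and 22244173 unique molecular identifiers (UMIs, molecules counted once each), and the WT library 5891 cells and 34052268 UMIs. Median depths were 1940 UMIs per nod2-/- cell and 3400 per WT cell. Clusters were called by marker genes and are written here without the suffix "-like". There were 2318 nod2-/- and 2746 WT enterocytes, 724 and 569 lysosome-rich enterocytes (LREs, which take up and digest protein), and 1114 and 820 leukocytes. Stromal cells numbered 197 and 79. The epithelial classes together held 4071 nod2-/- and 4620 WT cells, and clusters 20, 23 and 27 had no name. The targeted gene nod2 had 75 UMIs in nod2-/- cells and 139 in WT cells, 3.37 and 4.08 CPM (counts scaled to a common class total of 1e6), and these counts do not show the deletion. For each class and library the UMIs of a gene were added up over cells and divided by all UMIs of that class, which gives its level in CPM, and log2 ratios are nod2-/- over WT.

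The class II chaperone gene cd74a (ENSDARG00000009087) was low in nod2-/- enterocytes and several times higher in WT enterocytes. It had 520 UMIs (42.7 CPM, 95% interval 39.1 to 46.5) in nod2-/- enterocytes and 3144 UMIs (174 CPM, 168 to 180) in WT enterocytes, a log2 ratio of -2.03 (-2.16 to -1.89). The counting intervals of the libraries were far apart. In all 5 enterocyte clusters the nod2-/- level was the lower one. The widest gap was in cluster 2, with 34.8 CPM in nod2-/- cells and 245 CPM in WT cells, and cluster 4 had the narrowest, with 36.9 and 112 CPM. The log2 ratios were -1.63, -1.77, -2.82, -2.28 and -1.60 in clusters 0 to 4. Under 10 alternative settings the enterocyte log2 ratio lay between -2.25 and -1.75.

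Among the named classes no other had a gap of that size in the same direction. Of the unnamed clusters, cluster 27 had 5 cd74a UMIs in 9 nod2-/- cells and 86 in 22 WT cells, with the ratio at -1.99 (interval -3.65 to -0.71). Cluster 20 was also lower in nod2-/-, with 125 UMIs (235 CPM) in nod2-/- and 288 UMIs (469.9 CPM) in WT cells. In LREs cd74a had 168 UMIs (43.9 CPM) in the nod2-/- library and 197 UMIs (35.9 CPM) in the WT library, a log2 ratio of 0.29 (-0.01 to 0.60). Of the nod2-/- LRE UMIs, 63 came from a single cell, 37.5% of the sum, and without the cell with the most UMIs in each library the ratio was -0.18 (-0.55 to 0.17). It was -0.39 as a mean over cells and -0.82 without the cells that held a leukocyte marker, so the LRE direction depended on the setting. BEST4 cells, a pH-sensing and ion-transporting epithelial type, had 108 and 256 UMIs, 94.8 CPM in nod2-/- and 132 CPM in WT cells, with a log2 ratio of -0.48 (-0.82 to -0.15). Goblet cells, the mucus makers, had 87.5 CPM in nod2-/- and 114 CPM in WT cells (-0.39, interval -0.79 to -0.00). BEST4 and goblet cells thus shared the direction of enterocytes at a smaller size, but both turned to a positive ratio, 0.17 and 0.95, when the cells were limited to the 200 to 2500 UMIs and 25% mitochondrial UMIs worded in the study's methods.

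Progenitors and enteroendocrine cells went the other way. Epithelial progenitors had 345 cd74a UMIs (364 CPM) in the nod2-/- library and 427 UMIs (265 CPM) in the WT library, a log2 ratio of 0.46 (0.25 to 0.67). Enteroendocrine cells, the hormone-secreting epithelial cells, had 121 UMIs (305 CPM) and 62 UMIs (119 CPM), a log2 ratio of 1.36 (0.90 to 1.82). In both classes the intervals of the 2 libraries did not overlap. In cycling cells the log2 ratio was 0.42 (-0.06 to 0.90) and in tuft cells 0.21 (-0.76 to 1.15), and neither interval left out 0. Summed leukocyte markers (ptprc, coro1a, lcp1, laptm5, cxcr4b and rac2) were also higher in nod2-/- enteroendocrine cells, 149 CPM against 86.6 CPM in WT ones. Without enteroendocrine cells that held such a marker the cd74a ratio was 0.77. In progenitors these markers summed to 83.4 CPM in nod2-/- and 55.8 CPM in WT, with 4.37 and 4.74 cd74a UMIs per marker UMI. Under 10 alternative settings, removal of cells with such a marker among them, the progenitor ratio lay between 0.29 and 1.29. The part of the markers in it was not tested further.

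**Figure D1:**
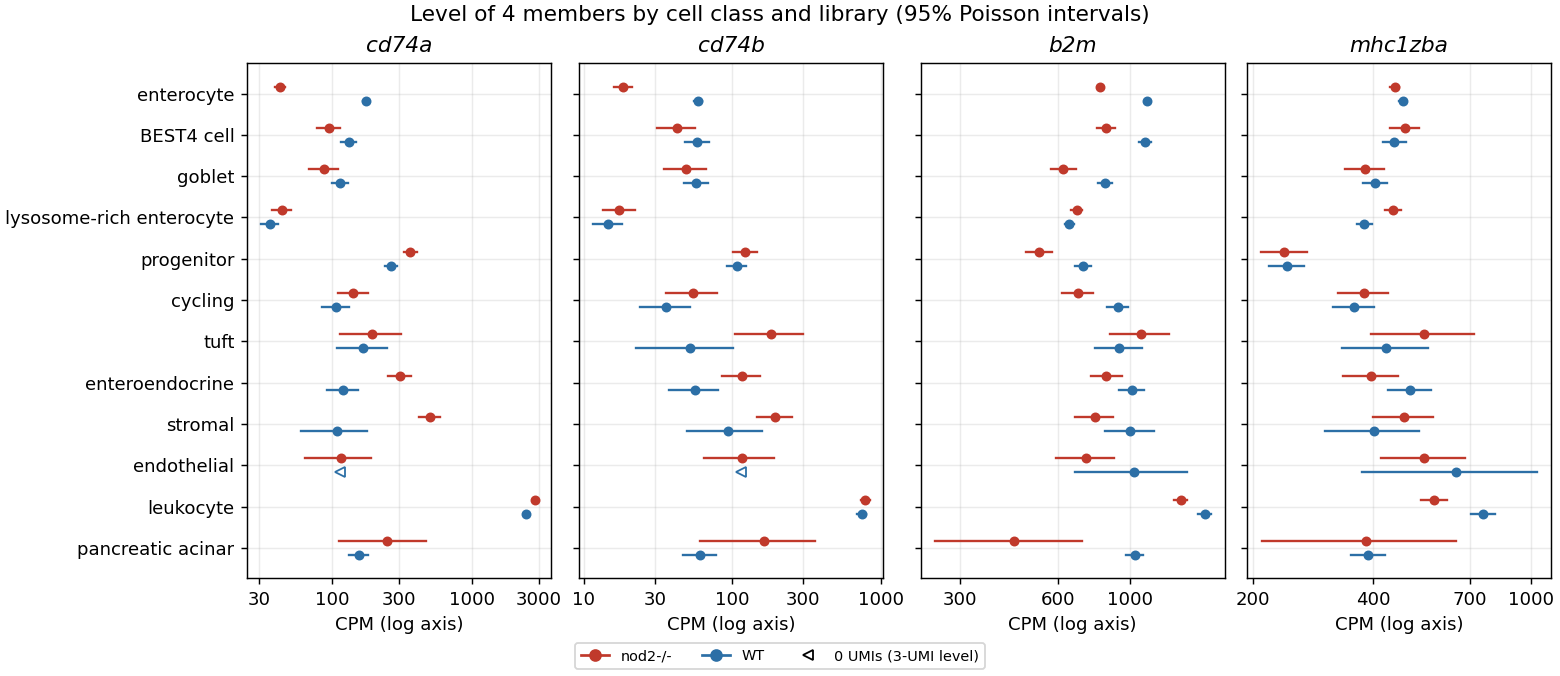
Level of cd74a, cd74b, b2m and mhc1zba in CPM (log axis) in each of 12 cell classes, with the nod2-/- library (red) above the WT library (blue), points for the summed level and bars for 95% Poisson intervals. Open triangles mark the level of 3 UMIs where a library had 0. For cd74a the enterocyte points stand apart, 42.7 CPM in nod2-/- and 174 CPM in WT cells, while the leukocyte points are the highest in both libraries.

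Leukocytes had the highest cd74a level in both libraries, 3472 UMIs (2838 CPM) in nod2-/- and 2726 UMIs (2436 CPM) in WT cells, with a log2 ratio of 0.22 (0.15 to 0.29). In the nod2-/- library stromal cells came next (499 CPM) and then progenitors (364 CPM), whose interval overlapped that of enteroendocrine cells. LREs (43.9 CPM) and enterocytes (42.7 CPM) were at the bottom there, with overlapping intervals. In the WT library progenitors came after leukocytes, and enterocytes followed at 174 CPM with an interval that overlapped those of tuft cells and pancreatic acinar cells. WT LREs, at 35.9 CPM, were lower than every other WT class with a UMI. With all cells summed, enterocytes and LREs thus had like levels in the nod2-/- library and unlike levels in the WT library. Without the cell with the most cd74a UMIs, nod2-/- levels were 27.6 CPM in LREs and 41.5 CPM in enterocytes. The WT levels were then 31.4 and 172 CPM. The likeness in nod2-/- therefore depended on a single LRE cell.

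Among 11 leukocyte sub-clusters, called by number, sub-cluster 3 held most of the cd74a. It met the naming threshold for all 7 macrophage markers and stayed unnamed because its leading genes fitted another class. It had 2712 cd74a UMIs (11998 CPM) in 146 nod2-/- cells and 2009 UMIs (13650 CPM) in 70 WT cells, a log2 ratio of -0.19 (-0.27 to -0.10). Its share of the library was 2.61% in nod2-/- and 1.19% in WT, so the leukocyte sums for cd74a hold more of this sub-cluster in the nod2-/- library. The other sub-clusters ranged from -1.87 (-3.18 to -0.74) in sub-cluster 10, with 8 and 36 UMIs, to 1.49 (0.52 to 2.54) in sub-cluster 5, with 32 and 13 UMIs.

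Per cell, cd74a was found in 227 of 2318 nod2-/- enterocytes (9.79%, exact binomial interval 8.61% to 11.1%) and in 851 of 2746 WT enterocytes (31.0%, 29.3% to 32.8%). The median depths were 3816 and 5342.5 UMIs. With every cell thinned to 500 UMIs, which left out no cell, the shares were 1.86% in nod2-/- and 6.30% in WT. Pancreatic acinar cells, which are not expected to use the gene, had a cd74a UMI in 13.3% of 45 nod2-/- cells and 24.1% of 261 WT cells at median depths of 635 and 2064 UMIs, and in 11.1% and 6.51% after thinning. The thinned enterocyte shares were therefore at or under the acinar shares in both libraries, where the nod2-/- acinar share was 5 of 45 cells. In WT enterocyte cluster 2 alone the thinned share was 10.1%, above the WT acinar share. A share of cells with 1 UMI is thus not read alone as use of the gene, and the part of background in it was not tested. Cells with several UMIs were less evenly spread. At least 5 cd74a UMIs were counted in 31 nod2-/- enterocytes (1.34%, interval 0.91% to 1.89%) and in 203 WT enterocytes (7.39%, 6.44% to 8.44%), while 0 of 45 nod2-/- and 10 of 261 WT acinar cells (3.83%) had as many. These counts were not thinned to a common depth, and enterocytes were deeper than acinar cells in both libraries. A single enterocyte reached 14 UMIs in the nod2-/- library and 33 in the WT library.

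**Figure D2:**
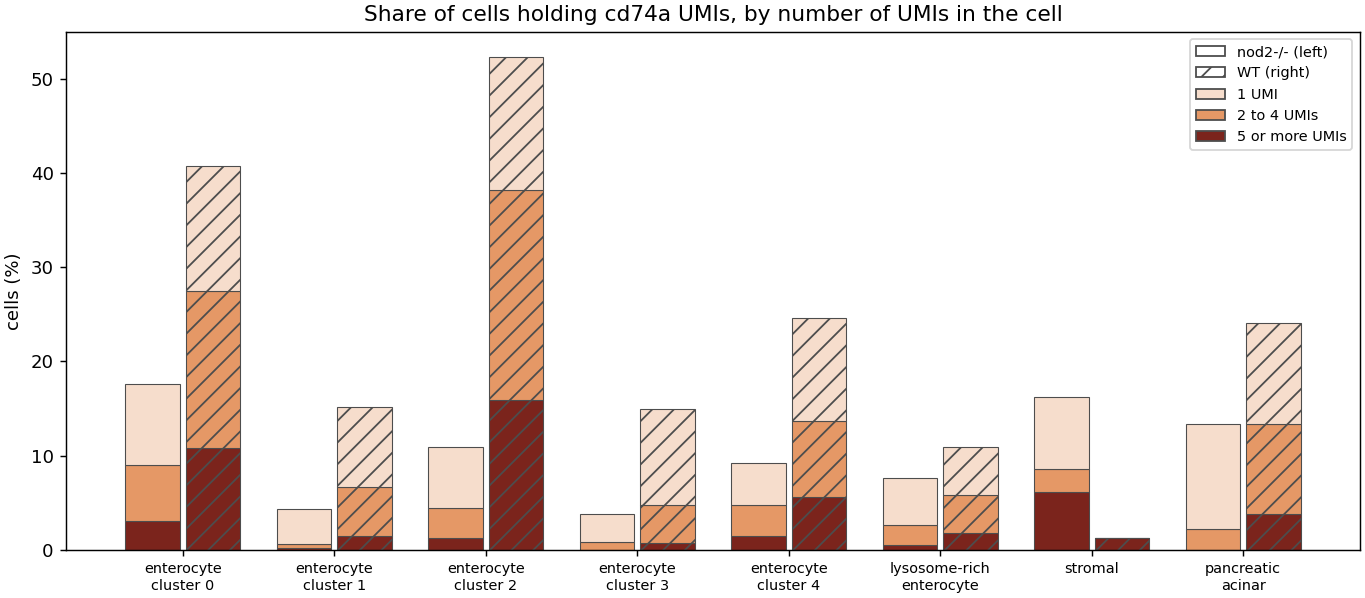
Share of cells (%) that held 1, 2 to 4, or 5 or more cd74a UMIs, in the 5 enterocyte clusters, LREs, stromal cells and pancreatic acinar cells, with nod2-/- bars left and hatched WT bars right. Bars in the enterocyte clusters are taller in WT, with 10.9% of WT cluster 0 cells and 15.9% of WT cluster 2 cells at 5 or more UMIs. The nod2-/- bar is the taller one in stromal cells.

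Leukocyte markers moved in the same direction in enterocytes, but less. All 6 had UMIs in both libraries and summed to 504 UMIs (41.4 CPM) in nod2-/- and 1024 UMIs (56.6 CPM) in WT enterocytes. The 7 macrophage markers summed to 8 and 9 UMIs, with c1qa at 0 in both libraries. There were 1.03 cd74a UMIs per leukocyte marker UMI in nod2-/- enterocytes and 3.07 in WT enterocytes, against 0.757 and 0.807 in LREs, 1.31 and 0.970 in leukocytes and 4.94 and 5.26 in sub-cluster 3. Of the enterocytes with cd74a, 34.8% in nod2-/- and 37.1% in WT also held a leukocyte marker, compared with 15.0% and 20.6% of those without it. Cells with cd74a were deeper, with medians of 7539 UMIs in nod2-/- and 8586 in WT. Without the cells that held a leukocyte marker, the enterocyte ratio was -2.25.

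Stromal cells, the connective tissue cells of the gut wall, differed most in the opposite direction. They had 141 cd74a UMIs (499 CPM) in the nod2-/- library and 15 UMIs (108 CPM) in the WT library, a log2 ratio of 2.21 (1.44 to 3.09). In nod2-/-, 32 of 197 cells (16.2%) held the gene, and 12 of them had 5 or more UMIs. In WT all 15 UMIs lay in 1 of 79 cells, and that cell held a leukocyte marker. Without the cells that held a leukocyte marker, 118 UMIs remained in 25 of 185 nod2-/- cells and 0 in 77 WT cells. Without the top cell of each library, nod2-/- stromal cells had 117 UMIs and WT cells 0. Either removal takes out the 1 WT cell and so sets the WT sum to 0, so no fold is given for them, and the removal of top cells was chosen after seeing the data. Leukocyte markers summed to 29 UMIs (103 CPM) in nod2-/- and 2 UMIs (14.4 CPM) in WT stromal cells, and macrophage markers to 2 and 0. The part of the leukocyte markers in the stromal sum of all cells was not tested beyond leaving those cells out. Endothelial cells had 15 UMIs in 60 nod2-/- cells and 0 in 13 WT cells. The nod2-/- level was 115 CPM and 3 UMIs in those WT cells would be 114 CPM, so a difference was not detectable at this depth.

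The paralog cd74b (ENSDARG00000036628), a second invariant chain gene, was also lower in nod2-/- enterocytes. It had 224 UMIs (18.4 CPM) in nod2-/- and 1057 UMIs (58.4 CPM) in WT enterocytes, a log2 ratio of -1.67 (-1.88 to -1.46), and was lower in nod2-/- in all 5 enterocyte clusters (-1.12, -1.42, -2.55, -2.75 and -1.48). In enteroendocrine cells it had 46 UMIs (116 CPM) in nod2-/- and 29 UMIs (55.8 CPM) in WT, a log2 ratio of 1.06 (0.36 to 1.78). Stromal cells had 55 nod2-/- UMIs and 13 WT UMIs, a ratio of 1.06 (0.17 to 2.06), with the 13 WT UMIs in 1 cell. Tuft cells, rare chemosensory cells, had 16 UMIs in 45 nod2-/- cells and 8 UMIs in 59 WT cells, a ratio of 1.83 (0.52 to 3.26) that rested on few counts. Leukocyte markers summed to 13 UMIs (149 CPM) in nod2-/- and 5 UMIs (32.3 CPM) in WT tuft cells. Under 10 alternative settings, removal of cells with such a marker among them, the tuft ratio lay between 0.87 and 2.26. The part of the markers in it was not tested further. In LREs the ratio was 0.24 (-0.25 to 0.73), and in leukocytes, with 967 and 833 UMIs, 0.09 (-0.05 to 0.22). Across the 12 classes the levels of cd74a and cd74b on a log2(CPM + 10) scale correlated with r = 0.94 in the nod2-/- and 0.97 in the WT library, a description over classes that share a library.

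The class II beta chain gene mhc2dab (ENSDARG00000079105) was almost uncounted, with 5 UMIs in all nod2-/- cells and 2 in all WT cells, and it permits no comparison. The class II alpha chain gene mhc2a is not among the 10 genes and was named after its values had been seen. It had 75 UMIs (6.15 CPM) in nod2-/- and 367 UMIs (20.3 CPM) in WT enterocytes, a log2 ratio of -1.72 (-2.10 to -1.36), with its WT level alone above 20 CPM. Leukocytes had 590 and 510 mhc2a UMIs, a ratio of 0.08 (-0.09 to 0.26). Levels of mhc2a and of both invariant chain genes were lower in nod2-/- enterocytes, but mhc2a was picked with its values known and adds no separate support. Their leukocyte ratios lay between 0.08 and 0.22, with the interval of cd74a alone above 0. In LREs, mhc2a had 28 and 27 UMIs.

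The light chain gene b2m (ENSDARG00000053136), needed by all classical class I molecules, was counted often in most classes, so its counting intervals there are narrow. Enterocytes had 9884 UMIs (811 CPM) in nod2-/- and 20358 UMIs (1125 CPM) in WT, a log2 ratio of -0.47 (-0.51 to -0.44). Under 10 alternative settings the enterocyte ratio lay between -0.65 and -0.27, a wider range than its counting interval. The gene was lower in nod2-/- in 10 of 12 classes, and the interval lay below 0 in 9 of them. In LREs it had 2627 UMIs (687 CPM) in nod2-/- and 3579 UMIs (652 CPM) in WT, and the ratio of 0.08 (0.00 to 0.15) was -0.0047 at clustering resolution 0.4. Tuft cells also had a positive ratio, 0.22 (-0.17 to 0.61), which was -0.41 with the cell filter worded in the methods. Leukocytes had the highest level in both libraries, 1429 CPM in nod2-/- and 1691 CPM in WT (-0.24, interval -0.34 to -0.15). Their sub-clusters ran from -0.83 (-1.07 to -0.59) in sub-cluster 2 to 0.78 (0.22 to 1.35) in sub-cluster 5. Sub-cluster 3, the larger share in the nod2-/- library, had 991 CPM in nod2-/- and 822 CPM in WT. Its part in the leukocyte ratio was not tested. None of the differences of enterocytes, leukocytes and LREs, each taken as a whole class, reached 1.5-fold.

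Pancreatic acinar cells, which are not part of the gut wall, had the lowest b2m ratio. They had 16 UMIs (439.6 CPM) in 45 nod2-/- cells and 1076 UMIs (1035 CPM) in 261 WT cells, a log2 ratio of -1.24 (-2.05 to -0.53). Acinar markers themselves summed to 16897 CPM in nod2-/- and 51334 CPM in WT acinar cells. The part of this difference in the b2m ratio was not tested, and scaling by trimmed means shifted all acinar ratios by -0.89.

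The U-lineage heavy chain gene mhc1uba (ENSDARG00000075963) was lower in nod2-/- enterocytes, except with the cell filter worded in the methods, and in BEST4 cells. Enterocytes had 492 UMIs (40.4 CPM) in nod2-/- and 1413 UMIs (78.1 CPM) in WT, a log2 ratio of -0.95 (-1.10 to -0.80), and clusters 0 to 4 gave -0.87, -0.77, -1.07, -0.38 and -0.85. Cluster 3, with 6 and 11 UMIs, was the only one whose interval held 0. BEST4 cells had 43 UMIs (37.7 CPM) and 123 UMIs (63.6 CPM), a ratio of -0.75 (-1.29 to -0.24). In LREs, with 121 and 190 UMIs, the ratio was -0.13 (-0.47 to 0.21), and in leukocytes, with 115 and 121 UMIs, -0.20 (-0.58 to 0.18). Progenitors had 34 and 38 UMIs and a ratio of 0.61 (-0.10 to 1.31). With cells limited to the range worded in the methods, 63 enterocyte UMIs were left and the enterocyte ratio was 0.36, the reverse direction. Reads of near-identical class I copies may be split or lost in the counting, so values of mhc1uba are uncertain in that respect.

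The Z-lineage gene mhc1zba (ENSDARG00000036588) was close to equal in the epithelium as a whole, 439 CPM in nod2-/- and 437 CPM in WT, but not in every class. Enterocytes had 5537 UMIs (454 CPM) in nod2-/- and 8600 UMIs (475 CPM) in WT, a log2 ratio of -0.07 (-0.11 to -0.02) that turned to 0.12 with TMM factors and 0.14 with RLE factors. LREs had 1721 UMIs (449.98 CPM) and 2093 UMIs (381 CPM), a ratio of 0.24 (0.15 to 0.33). Enteroendocrine cells had 157 and 258 UMIs, a ratio of -0.32 (-0.62 to -0.03). Leukocytes had 698 UMIs (571 CPM) and 847 UMIs (757 CPM), a ratio of -0.41 (-0.55 to -0.26). Among leukocytes the lowest ratios were those of sub-cluster 2, with 62 nod2-/- and 145 WT UMIs (-1.20, interval -1.65 to -0.76), and of sub-cluster 10, with 9 and 29 UMIs. Progenitors had the lowest level of the 12 classes in both libraries, 239.6 CPM in nod2-/- and 244 CPM in WT.

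**Figure D3:**
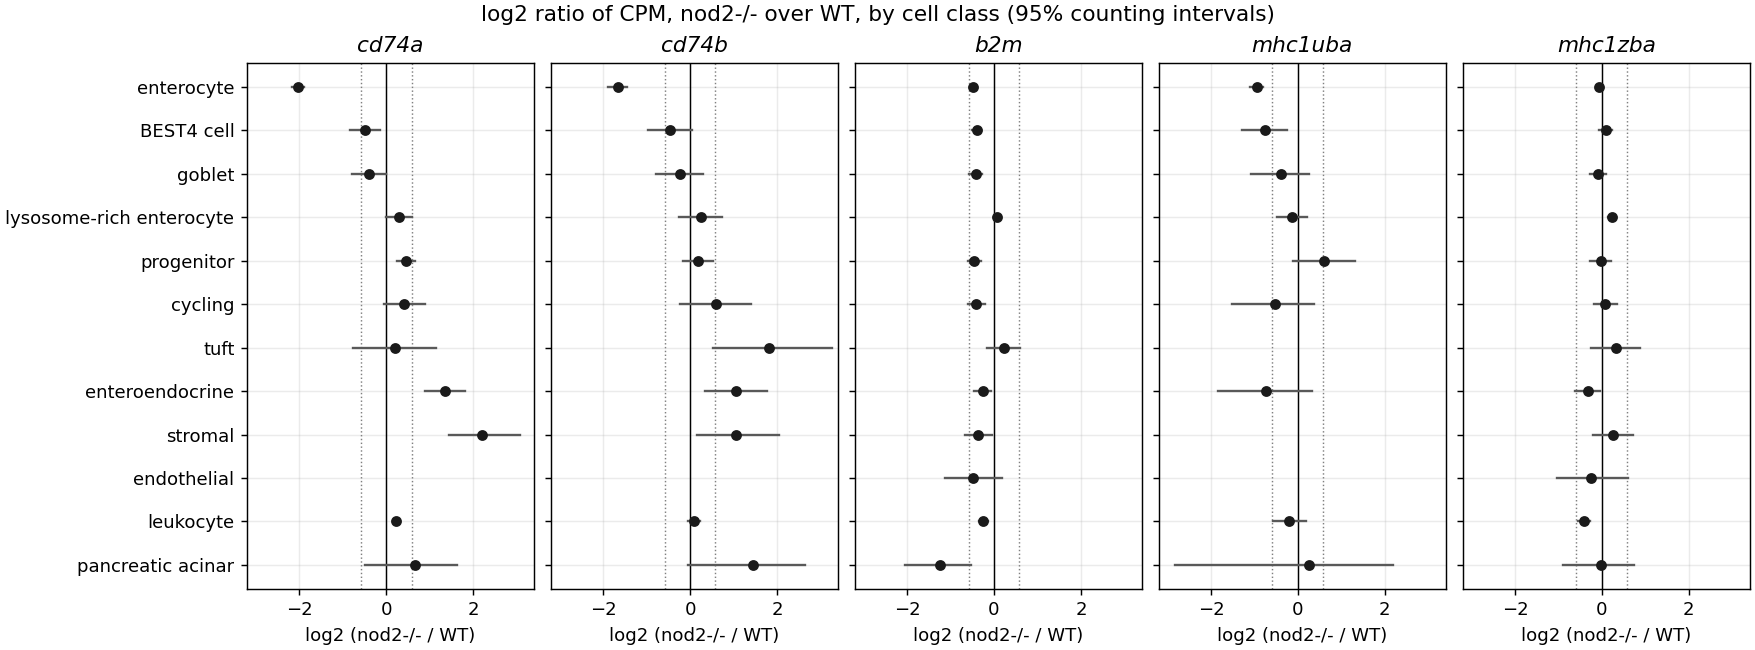
Log2 ratio of CPM, nod2-/- over WT, for cd74a, cd74b, b2m, mhc1uba and mhc1zba in each cell class with at least 20 UMIs over both libraries, with 95% exact conditional intervals for counting error and dotted lines at 1.5-fold. The cd74a ratios run from -2.03 in enterocytes to 2.21 in stromal cells, whereas those of mhc1zba stay between -0.41 and 0.32.

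Of the genes that supply peptides, tap1 (ENSDARG00000079766), a subunit of the peptide transporter, had 126 UMIs (10.3 CPM) in nod2-/- and 213 UMIs (11.8 CPM) in WT enterocytes. Its log2 ratio was -0.19 (-0.52 to 0.14), and no interval of the 6 classes with 20 or more UMIs left out 0. The interferon-inducible catalytic subunit genes psmb8a (ENSDARG00000001303) and psmb9a (ENSDARG00000000656), and psmb13a (ENSDARG00000001656), another proteasome beta subunit gene, had few UMIs. In enterocytes psmb8a had 116 UMIs (9.52 CPM) in nod2-/- and 292 UMIs (16.1 CPM) in WT, a log2 ratio of -0.76 (-1.09 to -0.45). The ratio was -0.69 (-1.05 to -0.35) for psmb9a, with 98 and 235 UMIs. It was -0.76 (-1.10 to -0.42) for psmb13a, with 105 and 263 UMIs. All 3 proteasome genes were thus lower in nod2-/- enterocytes with intervals below 0, at levels under 20 CPM in both libraries. The share of all genes with such intervals is not given, so this is not read as particular to them. TMM factors shifted all enterocyte ratios by 0.19. In the range of cells worded in the methods psmb13a had 11 UMIs left and a ratio of 0.02.

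In BEST4 cells the 3 proteasome genes were lower in nod2-/- as well. The BEST4 ratio of psmb8a was -0.80 (-1.61 to -0.04) on 20 nod2-/- and 59 WT UMIs. That of psmb9a was -1.06 (-2.07 to -0.15) on 13 and 46 UMIs, and that of psmb13a, whose interval held 0, was -0.79 (-1.71 to 0.05) on 16 and 47. In cycling cells the 3 ratios were -1.02, -0.94 and -0.42, with the interval of psmb8a alone below 0. In LREs psmb9a had 52 UMIs (13.6 CPM) in nod2-/- and 126 UMIs (22.9 CPM) in WT, a log2 ratio of -0.75 (-1.25 to -0.28), while psmb13a, with 66 and 103 UMIs, had -0.12 (-0.59 to 0.34). In progenitors psmb9a had 32 UMIs in each library, 33.8 CPM in nod2-/- and 19.8 CPM in WT, a ratio of 0.77 (0.02 to 1.52), and psmb13a had -0.29 (-1.08 to 0.45). In leukocytes psmb8a, psmb9a and psmb13a had ratios of 0.05, -0.27 and -0.41, and every interval held 0.

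Counts past 1.5-fold were set beside the share of every gene that reached 20 CPM in either library and 20 UMIs in both together. In the epithelium as a whole 6 of the 10 genes passed this filter, and 3 of them were lower in nod2-/- (cd74a -1.02, cd74b -0.84 and mhc1uba -0.74) and 0 higher, where 7.40% of 4270 genes were lower and 4.66% higher. In enterocytes 5 passed, 3 were lower and 0 higher, against 14.0% lower and 4.82% higher of 3841 genes. There cd74b passed through its WT level alone, and the 3 proteasome genes, at -0.76 to -0.69, were under the filter in both libraries. The median log2 ratio was -0.95 over the 5 genes and -0.17 over all genes tested in enterocytes. In LREs 6 passed, with 1 lower (psmb9a) and 0 higher, against 6.18% lower and 6.48% higher of 4705 genes, and psmb9a passed through its WT level alone. In leukocytes 9 passed and 0 were past 1.5-fold in either direction, against 13.2% lower and 12.6% higher of 4566 genes. In stromal cells 4 passed, with 0 lower and 2 higher (cd74a and cd74b), against 21.4% lower and 18.4% higher of 2893 genes. The stromal share of all genes past 1.5-fold is large in both directions, and WT stromal cells numbered 79. With cells limited to the range worded in the methods, the epithelial count was 0 lower instead of 3.

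By the sign of the ratio alone, none of the 9 genes with enough UMIs had 1 direction in every class. The share of all genes with 1 direction in every class is not given, and several classes hold few UMIs. This count is therefore not read as particular to these genes. Among the 11 classes with at least 20 cd74a UMIs, it was higher in nod2-/- in 8 and lower in 3, with the interval above 0 in 4 and below 0 in 3, and cd74b had the same split of 8 and 3. The split was 2 higher and 10 lower for b2m, 2 and 7 for mhc1uba, 5 and 7 for mhc1zba, and 4 and 2 for tap1. It was 3 and 6 for psmb8a, 1 and 7 for psmb9a, and 2 and 7 for psmb13a. The classes with higher mhc1uba (progenitors and acinar cells) all had intervals that held 0. So did those with higher psmb8a (progenitors, leukocytes and acinar cells). For b2m the tuft interval held 0, and the LRE ratio lay just above 0 and changed sign at resolution 0.4. The single class in which psmb9a was higher was progenitors, and the 2 for psmb13a, enteroendocrine and acinar cells, had intervals that held 0. In the acinar class, with 45 nod2-/- cells, the directions of cd74a, cd74b and psmb8a depended on the settings. That of cd74a also did in LREs, BEST4, goblet, cycling (-0.81 to 3.34) and tuft cells (-0.71 to 0.37). For cd74b it also changed in LREs, BEST4 cells, goblet cells, cycling cells and progenitors. These splits hold for the main settings only, and directions of other genes changed in some classes too.

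Shares within a pair of paralogs do not depend on the total of a class, though they carry any difference in length and capture between the genes. In enterocytes cd74a made up 520 of the 744 UMIs of cd74a and cd74b in nod2-/- (69.9%) and 3144 of 4201 in WT (74.8%), a log2 odds ratio of -0.36 (-0.61 to -0.10). In leukocytes the share was 78.2% in nod2-/- and 76.6% in WT (0.13, interval -0.02 to 0.29), and in sub-cluster 3 it was 80.9% and 81.0%. In stromal cells it was 71.9% of 196 UMIs and 53.6% of 28, and in tuft cells 51.5% of 33 and 76.5% of 34, both with intervals that held 0. Over 10 classes the share was higher in nod2-/- in 5 and lower in 5. Enterocytes alone had an interval that left out 0, and under the filter worded in the methods that log2 odds ratio was 0.74.

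The mhc1uba share of mhc1uba and mhc1zba was lower in nod2-/- in 8 of 10 classes, the closest that a pair came to 1 direction. It was 8.16% of 6029 UMIs in nod2-/- and 14.1% of 10013 UMIs in WT enterocytes, a log2 odds ratio of -0.89 (-1.05 to -0.73). In BEST4 cells it was 7.28% and 12.3% (-0.84, interval -1.40 to -0.30), and in LREs 6.57% and 8.32% (-0.37, interval -0.72 to -0.02). In these 3 classes the interval left out 0, while it held 0 in goblet, cycling, tuft, enteroendocrine and stromal cells. A share does not show which gene of the pair moved. In LREs the ratio of mhc1uba itself was -0.13, with an interval that held 0, and that of mhc1zba was 0.24. The exceptions were progenitors, with 34 of 261 UMIs in nod2-/- and 38 of 431 in WT (0.63, interval -0.12 to 1.38), and leukocytes, with 14.1% and 12.5% (0.21, interval -0.20 to 0.62). In enterocytes the ratio of shares turned to 0.39 when cells were limited to the range worded in the methods. Of the 3 pairs among psmb8a, psmb9a and psmb13a, compared in 7 classes each, none had 1 direction throughout and no interval left out 0. A difference that moved these 3 genes alike would leave their shares unchanged, so the shares cannot show it. In enterocytes psmb8a made up 54.2% of psmb8a and psmb9a UMIs in nod2-/- and 55.4% in WT.

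**Figure D4:**
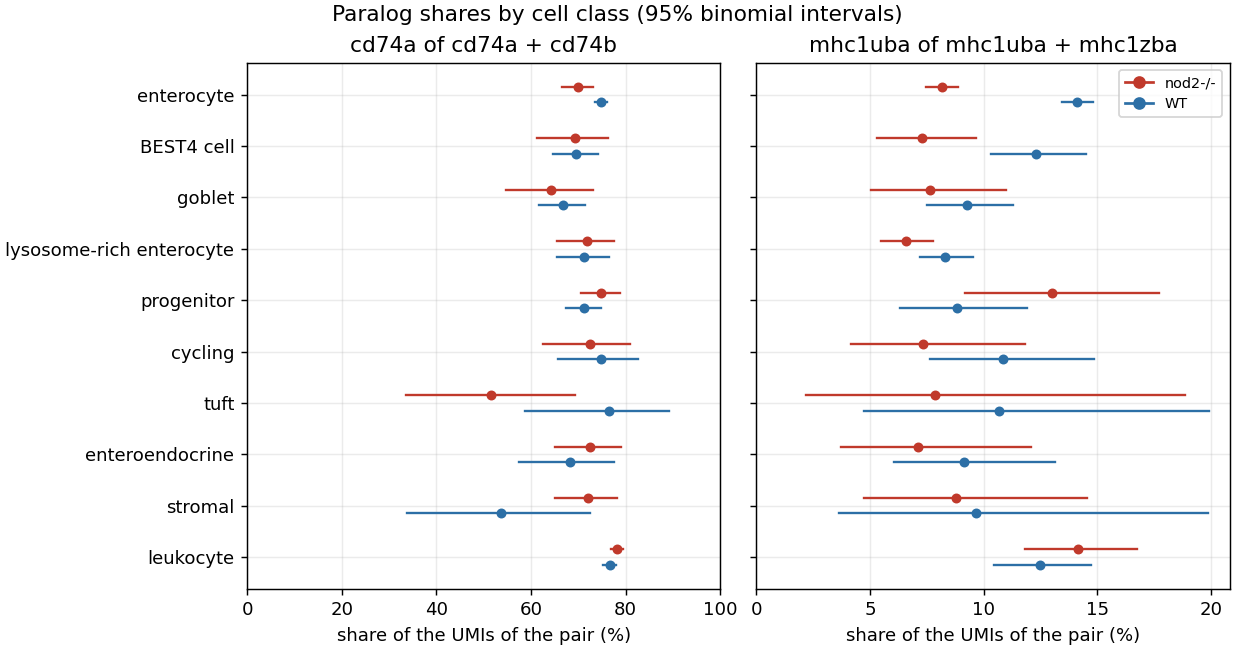
Share (%) of the UMIs of a pair that came from cd74a (left, of cd74a and cd74b) and from mhc1uba (right, of mhc1uba and mhc1zba) in 10 cell classes, with nod2-/- (red) above WT (blue) and 95% exact binomial intervals. The mhc1uba share is 8.16% in nod2-/- and 14.1% in WT enterocytes, while in progenitors and leukocytes the nod2-/- point lies to the right of the WT point.

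The names of 9 of the 10 genes matched the RefSeq annotation of the GRCz12tu assembly, which is another build than that of the counts. There mhc1uba, psmb8a, psmb9a and psmb13a lie on 1 chromosome, and none of the 9 lies on the chromosome of nod2. The 4 genes on that chromosome were all lower in nod2-/- enterocytes, BEST4 cells, LREs, goblet cells and cycling cells. The share of all genes lower by sign is not given, and in enterocytes 14.0% were past 1.5-fold lower and 4.82% higher. With the cell filter worded in the methods, mhc1uba (0.36) and psmb13a (0.02) were higher in nod2-/- enterocytes. Some directions in LREs, goblet and cycling cells also changed under alternative settings, and those in BEST4 cells did not. All 4 goblet intervals held 0, and in cycling cells that of psmb8a alone lay below 0. In progenitors 3 of the genes were higher and psmb13a lower, with psmb9a alone having an interval that left out 0. In leukocytes psmb8a was the only one with a positive ratio, and all 4 intervals held 0. Acinar cells had 4 positive ratios on 1 or 2 nod2-/- UMIs each, and enteroendocrine, tuft and stromal cells had mixed signs.

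Other genes of the pathway were read from role lists. Of the epithelial genes past 1.5-fold, ctsl.1 (1.47) and lgmn (1.09), which encode lysosomal proteases that also trim the invariant chain in mammals, were higher in nod2-/-, as was the constitutive proteasome subunit gene psmb7 (0.59). The interferon regulatory factor gene irf1b was lower, with 236 UMIs (11.9 CPM) in nod2-/- and 709 UMIs (23.1 CPM) in WT, a log2 ratio of -0.96 (-1.18 to -0.75). It passed the filter through its WT level alone, and psmb7 through its nod2-/- level alone (26.3 and 17.5 CPM). In enterocytes irf1b, again above 20 CPM in WT alone, had a ratio of -1.31 (-1.61 to -1.03), whereas stat1a, which encodes an interferon signal transducer, had 0.31 (0.15 to 0.47). The class II transactivator gene ciita had 7 UMIs in nod2-/- and 32 in WT enterocytes (-1.62, interval -3.05 to -0.42), under the filter in both libraries. In the epithelium as a whole ciita was also under the filter, with 25 UMIs (1.26 CPM) in nod2-/- and 56 UMIs (1.82 CPM) in WT. Its ratio there was -0.54 (-1.28 to 0.17), an interval that held 0. The proteasome activator genes psme1 and psme2 were at -0.02 and -0.05 there. Of 18 class I genes in the counts 3 passed the filter in enterocytes, and mhc1uka, another U-lineage gene, was also lower (-0.60, interval -0.82 to -0.38), as mhc1uba was.

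In leukocytes the proteases ctsl.1 (315 nod2-/- and 65 WT UMIs, 2.15), lgmn (1.20) and ctss2.2 (0.73), the chaperone gene calr3a (0.98) and the myeloid transcription factor gene irf8 (1.63) were higher in nod2-/-, and the class I gene mhc1zea was lower (-0.78). Of these irf8 passed through its nod2-/- level alone (36.0 and 11.6 CPM). Macrophage markers summed to 486 CPM in nod2-/- and 306 CPM in WT leukocytes. Within sub-cluster 3, which met the threshold for all 7 macrophage markers but stayed unnamed, ctsl.1 had 149 nod2-/- and 5 WT UMIs, a ratio of 4.28. There irf8 had 1.31, lgmn 0.73 and ctss2.2 0.45, all 3 with intervals above 0, and calr3a had 0.87 with an interval that held 0. In the epithelium ctsl.1 was also higher, 3832 CPM in nod2-/- and 1387 CPM in WT, and its part in the leukocyte counts was not tested. The part of the macrophage markers in the leukocyte ratios was not tested further. Of 9 class II processing genes 6 passed in stromal cells and all 6 were past 1.5-fold on the nod2-/- side, beside the 18.4% of all stromal genes, with a median log2 ratio of 1.38 beside -0.02 for all stromal genes tested. The list includes cd74a and cd74b, and the intervals of ctsla (-0.06 to 2.25) and lgmn (-0.28 to 3.31) held 0. Summed leukocyte markers were also higher in nod2-/- stromal cells (103 and 14.4 CPM). All WT stromal UMIs of cd74a lay in 1 cell, as did those of cd74b. In the epithelium lgmn was also higher in nod2-/- (456 and 214 CPM), while ctsla was lower (19.1 and 26.3 CPM). The part of any of these in the stromal ratios was not tested.

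By level over the 12 classes, the genes most like cd74a among 9948 were cd74b, runx3, a leukocyte transcription factor gene (r = 0.85 in the less alike library), and dusp2, a phosphatase gene (0.85). For psmb8a they included med31 (0.86) and psmb13a (0.84). For b2m they were mxd (0.78), ccl38.6 (0.76) and si:ch211-165d12.4 (0.76), and for mhc1zba smap1 (0.76), cdk17 (0.75) and snx29 (0.75). These are Pearson correlations of log2(CPM + 10) over classes, which share a library and its depth.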

How the data were processed

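The authors deposited UMI counts per gene and cell, made with Cell Ranger 7.0.1 against GRCz11 and not normalized. All 11490 cells were used; each had at least 500 UMIs. Both libraries were integrated and clustered with Seurat 5.3.0 (Matrix 1.6.5, R 4.3.3; 50 components, resolution 0.8, 29 clusters) with 67 pathway genes kept out of the variable genes, which left 1989. Clusters needed 3 detected markers for a name; the scoring was changed 2 times after cluster contents and cells per library were seen. The libraries share 10 barcodes. Scrublet in scanpy 1.11.5 made 0 automatic doublet calls, so none was removed. UMIs were summed per class and library (Python 3.11.15, numpy 2.4.6, scipy 1.17.1, pandas 2.3.3, matplotlib 3.10.9) with exact Poisson, binomial and conditional binomial intervals, and the arithmetic was checked on simulated data. A gene at 0 was set against 3 UMIs. Alternatives were the cell filter of the methods, a mitochondrial limit of 25%, removal of high doublet scores, scaling factors from edgeR 4.0.16, means over cells, other clusterings, no count filter, and removal of cells with leukocyte markers. Removal of the top cell was added after seeing the data. The genes and lists were chosen with earlier results of these data known. Named genes were all 10; up to 5 other pathway genes in each direction in epithelium and leukocytes past 1.5-fold with at least 20 CPM and 50 UMIs; 3 genes most alike in level, of which 1 is not reported here; nod2; and mhc2a, ciita, stat1a, psme1, psme2 and mhc1uka, chosen after their values were seen. Promoters and proteins were not used here.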

Additional observations from a re-analysis of the deposited data

Results flagged for a closer look

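Each of 5 genes had log2 ratios (nod2-/- over WT) that differed in sign between cell classes with counting intervals apart from 0 on both sides; whether the ratios of 2 classes differ beyond fish and libraries was not tested. For cd74a the ratio was 2.21 in stromal cells and -2.03 in enterocytes. All 15 WT stromal UMIs lay in 1 cell, which the counting interval does not take into account. In stromal cells leukocyte markers were also higher in nod2-/- (103 CPM against 14.4 CPM in WT). For cd74b it was 1.83 in tuft cells, with 24 UMIs over both libraries, and -1.67 in enterocytes. Leukocyte markers were also higher in nod2-/- tuft cells (149 CPM against 32.3 CPM in WT). For b2m it was 0.076 in LREs (-0.0047 at resolution 0.4) and -1.24 in pancreatic acinar cells. For mhc1zba it was 0.24 in LREs and -0.41 in leukocytes. For psmb9a it was 0.77 in progenitors (0.02 to 1.52, on 32 UMIs in each library) and -1.06 in BEST4 cells. Without the top cells the progenitor interval held 0 (-0.03 to 1.53).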

How the results depend on the processing

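No paired analysis was possible because each genotype has 1 library, and for the same reason no replicate could be left out. The alternatives were run 1 at a time. Under the cell filter worded in the methods, which keeps 5124 of 11490 cells, 32 of 116 log2 ratios had the other sign. Of these 25 had been under 1.5-fold, or had an odds ratio whose interval held 0, before that filter, cd74a in BEST4 cells (0.17) and goblet cells (0.95) among them, and 7 were not: mhc1uba in enterocytes (0.36), psmb13a in enterocytes (0.022), psmb9a in goblet cells (0.084), psmb8a in sub-cluster 3 (0.11), and the log2 odds ratios of the cd74a share in the epithelium (0.47) and in enterocytes (0.74) and of the mhc1uba share in enterocytes (0.39). It also gave 0 of the 10 genes lower in the epithelium. Without the filter on low counts 1 gene, mhc2dab, was higher in the epithelium and 1, mhc2dab, in leukocytes, on 1 and 4 nod2-/- UMIs. In acinar cells cd74a turned to -0.22 with TMM factors, -0.24 with RLE factors, -0.82 with 30 components and -0.027 without the top cells, and with 30 components cd74b turned to -0.23 and psmb8a to -0.041. Without cells that held a leukocyte marker cd74b in cycling cells was -0.14. The number of genes with 1 direction in every class was 1 instead of 0 without those cells (tap1) and 1 without the top cells (psmb13a). The cause of these changes was not tested. The thinned share of enterocytes with mhc1zba differed by 0.031 percentage points, against -4.08 unthinned. TMM factors shifted all ratios by 0.11 in the epithelium, 0.19 in enterocytes, 0.21 in stromal and 0.47 in endothelial cells. The proteasome genes, tap1, mhc2dab and the small classes rest on few UMIs.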
